A study of Saccharomyces cerevisiae with 12 samples.

Results

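The genes described here are 49 budding yeast (Saccharomyces cerevisiae) factors that build ribosomes in the nucleolus. They were taken by gene symbol from a given list, with the probe set of highest mean signal for each gene, out of 5449 yeast genes on the array. All 49 were measured, each by 1 probe set, and all 49 had a mean signal above the background of 5.49, the 95th percentile of the mean log2 signal of probe sets whose listed gene lies outside the yeast table. By textbook role, 20 belong to the small-subunit processome, 18 act on the large subunit, 6 are core proteins of small nucleolar ribonucleoproteins (snoRNPs) and 5 act on both subunits or were left unassigned.

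Ribosome assembly starts on the primary rRNA transcript in the nucleolus. The small-subunit processome, built around the U3 snoRNA, folds and cuts the part that becomes 18S rRNA, while a separate set of factors packs the 25S and 5.8S parts into the large subunit, and snoRNPs guide methylation (box C/D) or pseudouridylation (box H/ACA) of the rRNA. In yeast the genes for these factors form one large regulon that is turned up in growing cells and turned down under many stresses, with activators such as Sfp1 and repressors such as Tod6, Dot6 and Stb3.

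The arrays measured 4 strains with 3 biological replicates each, 12 in all: hac1∆(hsf1), WT(hsf1), hac1∆ and WT. All cultures grew in synthetic medium without uracil and were treated with 2.5 mM dithiothreitol (DTT) for 2 h, and no culture without DTT was analysed here, so the differences below are between strains under stress and not responses to DTT. DTT is a reducing agent that disturbs protein folding in the endoplasmic reticulum, HAC1 encodes the activator that carries the unfolded protein response to the genome, and HSF1 the heat shock transcription factor. The labels do not say what (hsf1) stands for, nor whether it is the same change in both strains that carry it, so below it names strains and nothing more.

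The HAC1 probe set read 5.25, 5.31 and 5.21 in hac1∆(hsf1), 10.86, 10.82 and 10.71 in WT(hsf1), 5.23, 5.24 and 5.23 in hac1∆ and 10.80, 10.37 and 10.58 in WT (log2 signal), so the strains labelled hac1∆ lay below background. The HSF1 probe set read 10.54, 10.81 and 10.66 in hac1∆(hsf1), 8.63, 8.51 and 8.41 in WT(hsf1), 7.75, 7.86 and 7.87 in hac1∆ and 8.08, 9.61 and 8.11 in WT. WT replicate 2 therefore stood apart from the other WT arrays in HSF1, and it read below both of them in 42 of the 49 factors and above both in 1, with a median gap of -0.16 for the factors and 0.00 for all genes. Across all genes the 3 hac1∆(hsf1) arrays correlated with WT replicate 2 at a Pearson r of 0.973 to 0.978, and with WT replicates 1 and 3 at 0.939 to 0.951. In HSF1, UTP20 and most of the factors WT replicate 2 thus departed from its fellows toward the hac1∆(hsf1) arrays. Whether it holds RNA of another strain was not tested, and every comparison with WT includes it unless said otherwise. hac1∆(hsf1) replicate 2 had the lowest mean of 17 rRNA control probe sets, 7.72, while the other 11 arrays ran between 8.40 (WT replicate 2) and 9.54. The part of either array in the results was not tested beyond leaving it out. Counts of the 49 factors without it are given beside each comparison that includes it.

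The factors were highest in WT(hsf1) and lowest in hac1∆(hsf1), with hac1∆ and WT between them. In 46 of the 49 genes, all 3 WT(hsf1) arrays lay above all 9 other arrays, an order that 23.9% of all genes showed. NOP16, UTP20 and UTP5 were the exceptions. In 34 genes all 3 hac1∆(hsf1) arrays lay below all 9 others, against 16.5% of all genes: 11 processome genes, 15 large-subunit genes, 5 snoRNP genes and 3 of the remaining 5. Without WT replicate 2 these counts were 46 and 40 genes, and without hac1∆(hsf1) replicate 2 they were 46 and 36.

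**Figure D1:**
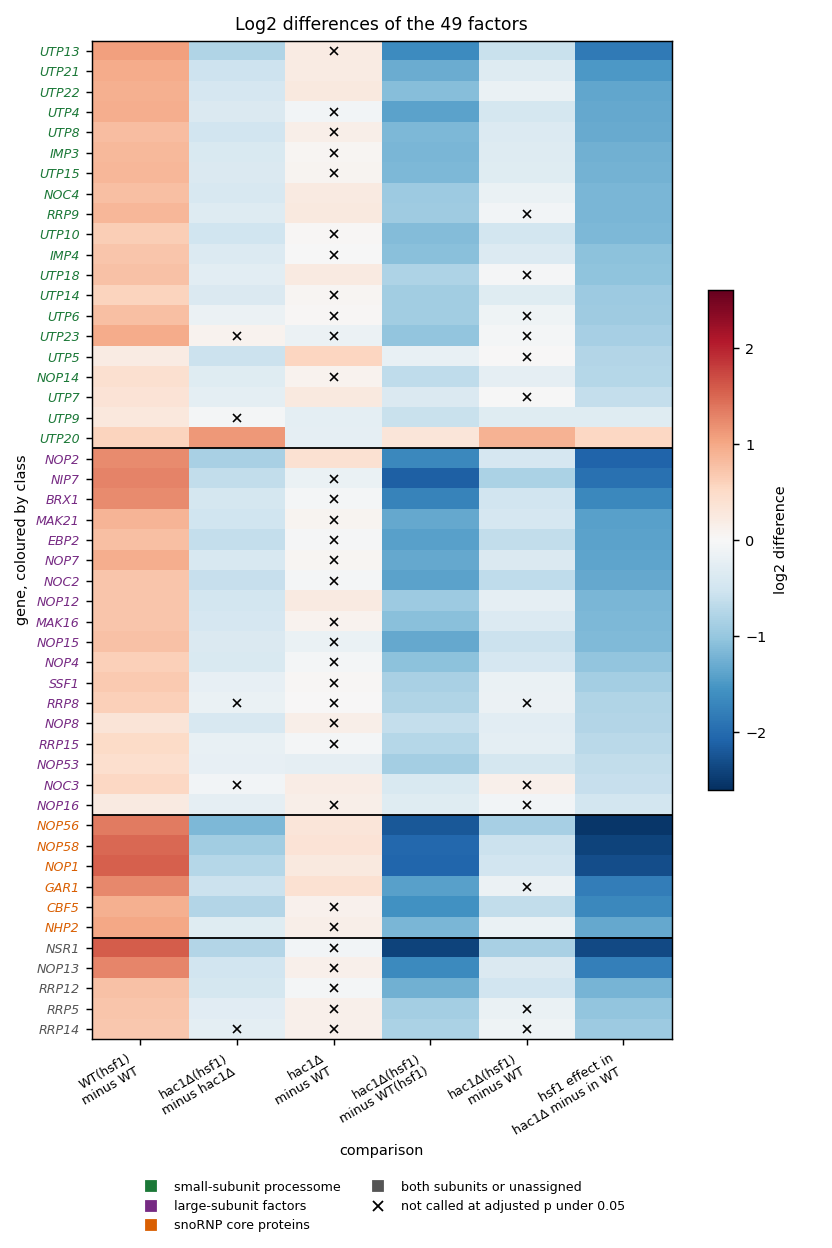
Fitted log2 differences of the 49 factors (rows, coloured by class) in 6 comparisons (columns); red is higher and blue lower in the strain named first, and a cross marks a difference not called at an adjusted p of 0.05. The first column is red throughout with no cross, while UTP20 is the red row in the last 3 columns.

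The first comparison asked what the (hsf1) strain difference was when HAC1 was present. All 49 factors rose in WT(hsf1) relative to WT by limma with Benjamini-Hochberg adjustment over all 5449 genes, with differences between 0.20 and 1.58 on the log2 scale and a median of 0.78. By the same test 32.3% of all genes were higher and 33.8% lower, with a median of -0.01. In 11 factors the rise was 2-fold or more, as in 3.58% of all genes: 5 of 6 snoRNP proteins, 3 of 18 large-subunit factors (NIP7, NOP2 and BRX1), 1 of 20 processome proteins (UTP13) and 2 of the others (NSR1 and NOP13). Without WT replicate 2, 48 factors were called and the median was 0.74. The 1 call lost was UTP5, which had an adjusted p of 0.0314 with all arrays and missed the threshold when replicate 1 or 2 of either strain was left out.

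The second comparison set the (hsf1) strain without HAC1 against hac1∆, and the difference ran the other way. The HSF1 probe set differed by 2.84 here, and by -0.08 in WT(hsf1) relative to WT (0.43 without WT replicate 2), and the labels do not say whether both pairs carry the same change. In hac1∆(hsf1) relative to hac1∆, 43 factors fell, 1 rose (UTP20) and 5 were not called, with a median of -0.41. Over all genes 30.7% were lower and 26.5% higher, with a median of -0.01. The 5 uncalled genes were NOC3 (-0.07), RRP8 (-0.16), RRP14 (-0.25), UTP9 (-0.05) and UTP23 (0.10). Same-numbered arrays of these strains deviated together, and with the replicate number as a block in a fit of their 6 arrays alone 45 factors fell, since RRP8 (adjusted p 0.0169) and RRP14 (adjusted p 0.048) then passed. Without hac1∆(hsf1) replicate 2, 42 fell and 1 rose.

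The difference between these (hsf1) differences, the interaction, was tested directly in the same fit. It was lower than 0 in 48 factors and higher in 1, UTP20, with a median of -1.19, whereas 34.0% of all genes were lower and 35.7% higher, with a median of 0.01. The same 48 to 1 split was found on leaving out WT replicate 2, with a median of -1.12. It was also found on leaving out hac1∆(hsf1) replicate 2, with a median of -1.22. Of the 49 genes, 47 had (hsf1) differences of opposite sign with and without HAC1, as did 3629 of all 5449 genes. Across the 49 genes, the 2 differences, which share no array, had a Pearson r of -0.53, and without UTP20 it was -0.63, beside -0.44 over all genes. This is a description across genes, which are not independent replicates. Within the large-subunit class the value was -0.69 and within the processome class -0.21, and no test was made between the classes.

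**Figure D2:**
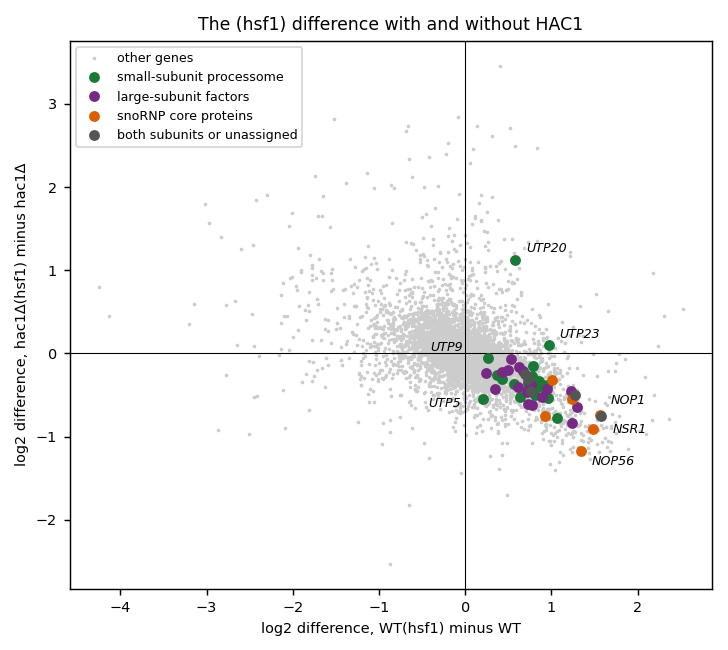
Each point is a gene, with its log2 difference in WT(hsf1) minus WT on the horizontal axis and in hac1∆(hsf1) minus hac1∆ on the vertical axis; grey points are the other genes of the array. The factors lie to the right of 0 and mostly below 0, from UTP5 and UTP9 near the centre to NOP56, NOP1 and NSR1, and UTP20 stands above at 0.58 and 1.13.

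Between hac1∆ and WT most of the factors were not called. The HSF1 probe set also differed in hac1∆ relative to WT, by -0.77 by limma (adjusted p 0.0464). Without WT replicate 2 it differed by -0.26 (adjusted p 0.0145). The loss of HAC1 cannot be told apart from this HSF1 difference. In hac1∆ relative to WT, 14 rose, 3 fell and 32 were not called, with a median of 0.09. Over all genes 28.4% were higher and 22.3% lower, with a median of 0.03, so the share of factors that rose was near that of all genes. The risers were 7 processome genes, 3 large-subunit genes and 4 snoRNP genes, among them UTP5 (0.56), NOP2 (0.40), GAR1 (0.39) and NOP58 (0.36). The genes that fell were UTP9 (-0.26), NOP53 (-0.23) and UTP20 (-0.22). The split rested on single WT and hac1∆ arrays: without WT replicate 2, 13 rose and 6 fell, and without hac1∆ replicate 2 only 1 fell.

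Between the strains labelled (hsf1), the one without HAC1 had lower signal in nearly the whole set. The HSF1 probe set was also 2.15 higher in hac1∆(hsf1) than in WT(hsf1) by limma (adjusted p 2.12e-05). Loss of HAC1 and this HSF1 difference cannot be told apart here. In hac1∆(hsf1) relative to WT(hsf1), 48 factors fell and UTP20 rose, with a median of -1.10, while 35.8% of all genes were lower and 41.7% higher, with a median of 0.04. In 29 factors the fall was 2-fold or more, as in 7.62% of all genes: all 6 snoRNP proteins, 10 processome proteins, 10 large-subunit factors and 3 of the others. The counts with WT replicate 2 or with hac1∆(hsf1) replicate 2 left out were again 48 and 1. This comparison shares arrays with both (hsf1) comparisons and with the interaction, so it is no separate evidence for them, and it shares none with hac1∆ relative to WT. UTP5 fell by 0.20 here, with an adjusted p of 0.0304, and was no longer called without WT(hsf1) replicate 1 or 2 or hac1∆(hsf1) replicate 1.

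Set against WT, hac1∆(hsf1) had 36 factors lower, 1 higher (UTP20) and 12 not called, with a median of -0.33. Over all genes 28.1% were lower and 29.0% higher, with a median of 0.01. By class, 13 of 20 processome, 15 of 18 large-subunit, 5 of 6 snoRNP and 3 of the remaining 5 genes fell. Without WT replicate 2, 40 fell and the median was -0.37, and without hac1∆(hsf1) replicate 2, 35 fell and the median was -0.33.

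Set side by side, the snoRNP core proteins had the widest range between strains, and the processome and large-subunit classes lay close to each other. In WT(hsf1) relative to WT the class medians were 1.29 for snoRNP proteins, 0.78 for processome proteins, 0.72 for large-subunit factors and 0.76 for the other 5. In hac1∆(hsf1) relative to hac1∆ they were -0.75, -0.37, -0.42 and -0.45 in the same order, and for the interaction -2.05, -1.12, -1.16 and -1.21. The classes also differed in brightness. Mean log2 signal over all arrays ran from 8.13 to 8.94 for the snoRNP genes. It ran from 6.08 to 7.95 for the processome genes and from 6.06 to 8.22 for the large-subunit genes. Whether signal level plays a part in the class medians was not tested.

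The classes overlapped gene by gene. In WT(hsf1) relative to WT, 15 of 20 processome genes and 14 of 18 large-subunit genes lay below the lowest snoRNP protein (CBF5, 0.92), and none lay above the highest (NOP1, 1.56). In hac1∆(hsf1) relative to WT(hsf1), 17 processome and 10 large-subunit genes lay above the snoRNP protein that fell least (NHP2, -1.19). Among the 17 was UTP20, which rose. NSR1, outside these classes, fell more than all 6 snoRNP proteins in hac1∆(hsf1) relative to WT(hsf1). With 6 snoRNP genes chosen with earlier results known, no test was made between classes.

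**Figure D3:**
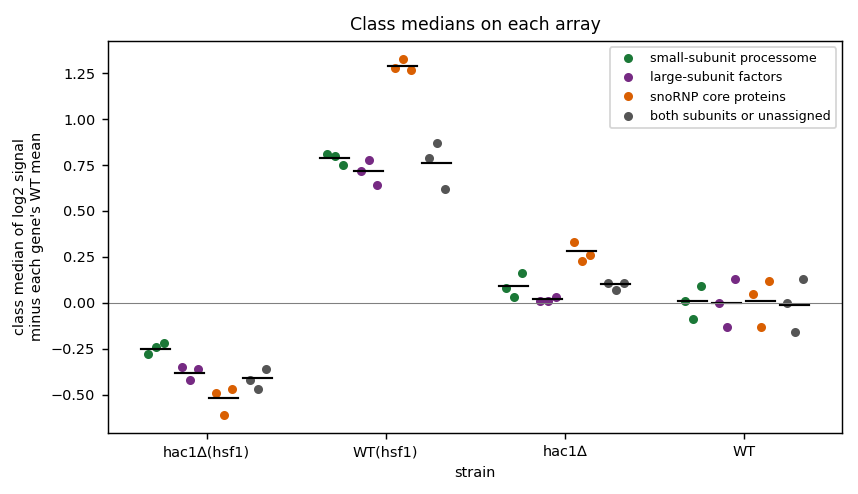
Class medians on each array, after subtracting from each gene its mean over the 3 WT arrays (vertical axis, log2 units); dots are arrays, bars the mean of 3. In WT(hsf1) the snoRNP median ran between 1.27 and 1.33 and the processome median between 0.75 and 0.81, and in hac1∆(hsf1) they ran between -0.61 and -0.47 and between -0.28 and -0.22.

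Among the snoRNP proteins the box C/D core had larger medians than the box H/ACA core. The medians of the 3 C/D and 3 H/ACA proteins were 1.49 and 1.0 in WT(hsf1) relative to WT, -0.91 and -0.55 in hac1∆(hsf1) relative to hac1∆, and -2.40 and -1.68 for the interaction. NOP1 encodes fibrillarin, the methyltransferase of box C/D snoRNPs. NOP1 read 7.38, 7.26 and 7.32 in hac1∆(hsf1), 9.37, 9.38 and 9.37 in WT(hsf1), 8.11, 7.98 and 8.11 in hac1∆, and 7.86, 7.82 and 7.76 in WT. The 4 strains did not overlap, with WT(hsf1) on top, then hac1∆, WT and hac1∆(hsf1). NOP1 rose by 1.56 ± 0.05 (SE) in WT(hsf1) relative to WT, 2.95-fold (adjusted p 2.6e-10), and fell by 0.74 in hac1∆(hsf1) relative to hac1∆ (adjusted p 2.21e-07). Its interaction was -2.30 (adjusted p 1.74e-10).

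NOP56 and NOP58 encode the paired scaffold proteins that hold the box C/D particle together. For NOP56 the signals were 7.27, 7.0 and 6.94 in hac1∆(hsf1), 9.24, 9.38 and 9.23 in WT(hsf1), 8.33, 8.26 and 8.14 in hac1∆, and 8.05, 7.65 and 8.11 in WT. For NOP58 they were 7.67, 7.56 and 7.76 in hac1∆(hsf1), 9.66, 9.76 and 9.71 in WT(hsf1), 8.59, 8.53 and 8.62 in hac1∆, and 8.29, 8.0 and 8.39 in WT. Both kept the strain order of NOP1 without overlap, and WT replicate 2 was the lowest WT array in both. NOP56 had the most negative interaction of the 49 genes, -2.52 ± 0.16 (SE, adjusted p 2.26e-08), and it fell 2.26-fold in hac1∆(hsf1) relative to hac1∆ (adjusted p 3.05e-06). NOP58 had an interaction of -2.40 (adjusted p 2.86e-09). Both were also called higher in hac1∆ relative to WT, but the NOP56 call (0.31, adjusted p 0.0389) was lost without WT replicate 2, at 0.16 (adjusted p 0.144), or without any 1 of 4 other arrays.

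CBF5 encodes the pseudouridine synthase of box H/ACA particles, and GAR1 and NHP2 its partners. CBF5 read 7.83, 7.58 and 7.79 in hac1∆(hsf1), 9.22, 9.39 and 9.30 in WT(hsf1), 8.53, 8.43 and 8.50 in hac1∆, and 8.43, 8.21 and 8.50 in WT. The hac1∆ and WT arrays overlapped, and both (hsf1) strains lay outside them on opposite sides. CBF5 rose by 0.92 in WT(hsf1) relative to WT (adjusted p 5.42e-07) and fell by 0.75 in hac1∆(hsf1) relative to hac1∆ (adjusted p 7.99e-06). GAR1 rose by 1.24 and NHP2 by 1.0 in WT(hsf1), and in hac1∆(hsf1) relative to hac1∆ they fell by 0.55 and 0.32.

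**Figure D4:**
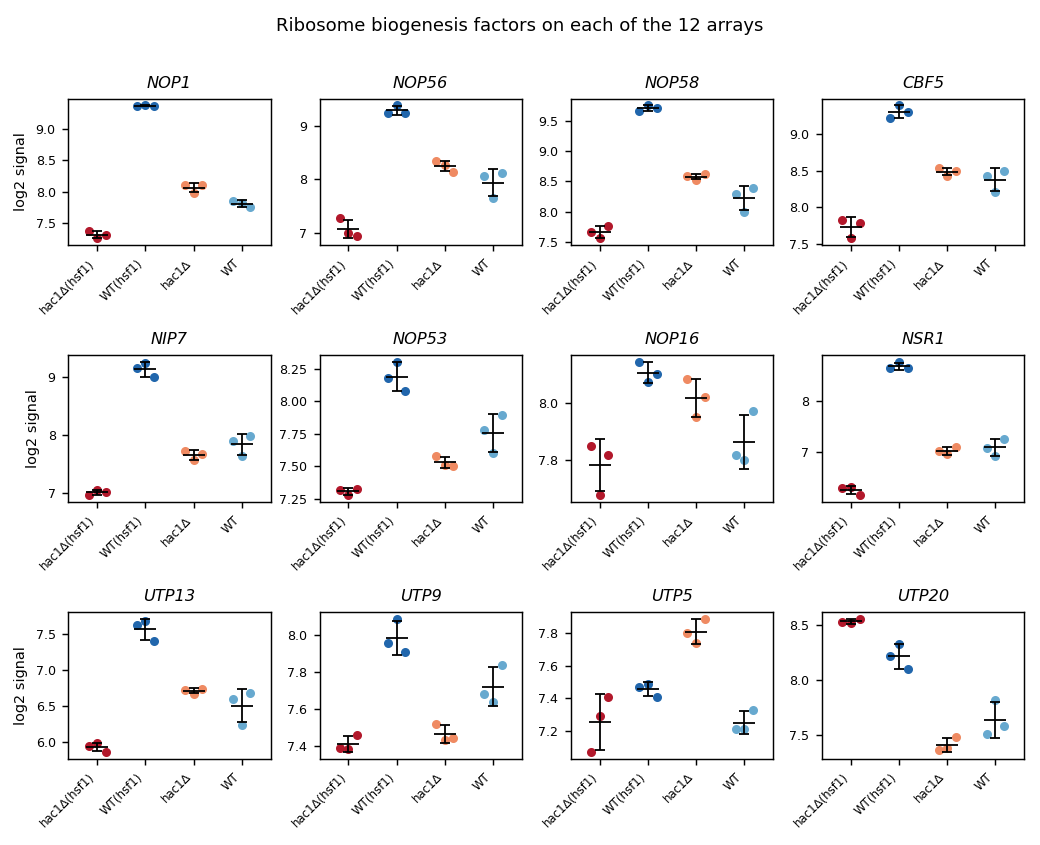
Log2 signal of 12 factors on each array, by strain; dots are arrays, and the bar and whiskers give the mean ± SD of 3. Each panel has its own axis. NOP1, NOP56, NSR1, NIP7 and UTP13 are highest in WT(hsf1) and lowest in hac1∆(hsf1), UTP5 is highest in hac1∆, and UTP20 is highest in hac1∆(hsf1).

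In the small-subunit processome, the UtpA complex is the first to bind the nascent transcript and is linked to rRNA transcription itself. Its 6 members (UTP4, UTP5, UTP8, UTP9, UTP10 and UTP15) all rose in WT(hsf1) relative to WT, by 0.20 to 0.95, and 5 fell in hac1∆(hsf1) relative to hac1∆. UTP5 and UTP9 departed from the others. UTP5 read 7.07, 7.29 and 7.41 in hac1∆(hsf1), 7.47, 7.49 and 7.41 in WT(hsf1), 7.80, 7.74 and 7.89 in hac1∆, and 7.21, 7.21 and 7.33 in WT. Its 3 hac1∆ arrays were the highest, 0.56 ± 0.08 (SE) above WT, 1.47-fold (adjusted p 8.41e-05), and it showed no called difference in hac1∆(hsf1) relative to WT (0.01).

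UTP9 read 7.39, 7.38 and 7.46 in hac1∆(hsf1), 7.96, 8.09 and 7.91 in WT(hsf1), 7.52, 7.43 and 7.44 in hac1∆, and 7.68, 7.64 and 7.84 in WT. Both hac1∆ strains were low and overlapped, at -0.05 from one another (adjusted p 0.476). Among the genes with a negative interaction, UTP9 had the one nearest 0, -0.32 (adjusted p 0.00514).

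The UtpB complex (here UTP6, UTP13, UTP18 and UTP21) joins after UtpA. All 4 rose in WT(hsf1) relative to WT, by 0.77 to 1.07, and all 4 fell in hac1∆(hsf1) relative to hac1∆, by 0.15 to 0.78. The fall of UTP6, the smallest, was not called without hac1∆ replicate 1 or 3 or hac1∆(hsf1) replicate 2 or 3. For UTP13, a WD-repeat subunit, the arrays gave 5.94, 5.98 and 5.86 in hac1∆(hsf1), 7.62, 7.68 and 7.40 in WT(hsf1), 6.72, 6.67 and 6.74 in hac1∆, and 6.59, 6.24 and 6.68 in WT. The (hsf1) strains lay on opposite sides of the overlapping hac1∆ and WT arrays. UTP13 rose 2.09-fold in WT(hsf1) relative to WT (adjusted p 9.42e-07) and fell 1.72-fold in hac1∆(hsf1) relative to hac1∆ (adjusted p 3.13e-05), and its interaction of -1.85 was the most negative of the processome class.

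The other processome subunits rose as well, and all but UTP20 and UTP23 fell in hac1∆(hsf1) relative to hac1∆. IMP3 and IMP4, which help U3 pair with the transcript, rose by 0.84 and 0.72 in WT(hsf1) relative to WT and fell by 0.40 and 0.35 in hac1∆(hsf1) relative to hac1∆. RRP9, the U3-specific protein of its particle, rose by 0.86 and fell by 0.33. UTP22, of the UtpC complex, rose by 0.92 and fell by 0.43. NOP14 and NOC4, which bind each other, rose by 0.42 and 0.78 and fell by 0.31 and 0.41. UTP14, the activator of the helicase Dhr1, rose by 0.57 and fell by 0.37, and UTP7, a scaffold protein, rose by 0.36 and fell by 0.25. UTP23, related to the processome nuclease Utp24, rose by 0.97 in WT(hsf1) relative to WT but had a difference of 0.10 in hac1∆(hsf1) relative to hac1∆, which was not called.

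UTP20, a long helical-repeat protein of the processome, was the only factor called against the members' median in every comparison except WT(hsf1) relative to WT. UTP20 read 8.53, 8.52 and 8.56 in hac1∆(hsf1), 8.22, 8.33 and 8.10 in WT(hsf1), 7.37, 7.38 and 7.48 in hac1∆, and 7.51, 7.82 and 7.58 in WT. The strains did not overlap, and hac1∆(hsf1), where 45 of the 49 genes had their lowest mean, held its highest. UTP20 rose by 1.13 ± 0.08 (SE), 2.18-fold, in hac1∆(hsf1) relative to hac1∆ (adjusted p 2.26e-07), and by 0.58 in WT(hsf1) relative to WT (adjusted p 2.44e-05). Its interaction was 0.55 (adjusted p 6.48e-04). The fall of 0.22 in hac1∆ relative to WT was not called without WT replicate 2 (-0.13, adjusted p 0.106) or without hac1∆ replicate 1 or 2. WT replicate 2 was the highest WT array in UTP20, by 0.28 over the mean of the other 2.

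On the chromosome, PDR3, a neighbour of UTP20 chosen after its values were seen, also rose in hac1∆(hsf1) relative to hac1∆, by 0.95 (adjusted p 3.39e-05), while the nearby HTA2 (0.04) and YBL005W-A (-0.07) were not called. In WT(hsf1) relative to WT, PDR3 (0.52), YBL005W-A (0.35) and HTB2 (0.88), also nearby, were called higher. There HTA2 (0.06) was not called and the nearby ECM15 (-0.29) was called lower. PDR3 encodes a transcription factor of drug resistance. The 49 genes lie on 13 chromosomes and only 1 pair, RRP15 and NOC4, are neighbours.

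Among the 18 large-subunit factors, all rose in WT(hsf1) relative to WT, by 0.24 to 1.30, and 16 fell in hac1∆(hsf1) relative to hac1∆. NIP7 encodes a small RNA-binding factor of early large-subunit particles. NIP7 read 6.96, 7.05 and 7.01 in hac1∆(hsf1), 9.15, 9.25 and 9.0 in WT(hsf1), 7.73, 7.56 and 7.67 in hac1∆, and 7.90, 7.63 and 7.98 in WT. The (hsf1) strains were 4.36-fold apart, lower in hac1∆(hsf1) (adjusted p 3.16e-10), and the hac1∆ and WT arrays overlapped between them. NIP7 rose 2.46-fold in WT(hsf1) relative to WT (adjusted p 3.98e-08) and had an interaction of -1.94 (adjusted p 2.28e-08).

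NOP2, a methyltransferase of 25S rRNA, and BRX1, an RNA-binding factor of the early large-subunit particle, rose by 1.24 and 1.22 in WT(hsf1) relative to WT and fell by 0.84 and 0.45 in hac1∆(hsf1) relative to hac1∆. The interaction of NOP2, -2.07, was the most negative of the class. NOC2 and MAK21, partners in an early complex, rose by 0.72 and 0.89 and fell by 0.61 and 0.52. NOC3, their relative in a later complex with NOC2, rose by 0.53 but was not called in hac1∆(hsf1) relative to hac1∆. RRP8, which methylates 25S rRNA, rose by 0.62. NOP7, of the Nop7-Erb1-Ytm1 complex, rose by 0.95 and fell by 0.42, and EBP2 rose by 0.78 and fell by 0.62. SSF1 rose by 0.67 and fell by 0.21, with the limit that its near-identical copy SSF2 may hybridise to the same probes.

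NOP16, a component of early large-subunit particles, had the smallest rise of the class in WT(hsf1) relative to WT. NOP16 read 7.85, 7.68 and 7.82 in hac1∆(hsf1), 8.14, 8.07 and 8.10 in WT(hsf1), 8.08, 7.95 and 8.02 in hac1∆, and 7.82, 7.80 and 7.97 in WT. WT(hsf1) overlapped hac1∆ and hac1∆(hsf1) overlapped WT. It rose by 0.24 in WT(hsf1) relative to WT (adjusted p 0.00415) and fell by 0.23 in hac1∆(hsf1) relative to hac1∆ (adjusted p 0.00568).

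NOP53, which recruits the RNA exosome's helicase to trim 5.8S rRNA, was the only large-subunit factor called lower in hac1∆ relative to WT. It rose by 0.43 in WT(hsf1) relative to WT. NOP53 read 7.32, 7.28 and 7.33 in hac1∆(hsf1), 8.18, 8.30 and 8.08 in WT(hsf1), 7.58, 7.51 and 7.50 in hac1∆, and 7.78, 7.60 and 7.89 in WT. The strains did not overlap, with WT(hsf1) above WT, hac1∆ and hac1∆(hsf1). Its fall of 0.23 in hac1∆ relative to WT (adjusted p 0.0183) was not called without WT replicate 1 or 3 (-0.22 and -0.16) or hac1∆ replicate 2 or 3. Its fall of 0.22 in hac1∆(hsf1) relative to hac1∆ (adjusted p 0.0193) was not called without hac1∆ replicate 1 or hac1∆(hsf1) replicate 2, as was the fall of 0.20 of RRP15 without hac1∆ replicate 1 or hac1∆(hsf1) replicate 3.

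Of the 5 factors of both subunits or unassigned role, NSR1, the yeast relative of nucleolin, ran over the widest range. NSR1 read 6.30, 6.31 and 6.16 in hac1∆(hsf1), 8.63, 8.75 and 8.63 in WT(hsf1), 7.01, 6.95 and 7.09 in hac1∆, and 7.08, 6.93 and 7.26 in WT. The hac1∆ and WT arrays overlapped, WT(hsf1) lay above them and hac1∆(hsf1) below. It rose 2.99-fold in WT(hsf1) relative to WT (adjusted p 2.34e-09), by 1.58 on the log2 scale beside 1.56 for NOP1, and without WT replicate 2 by 1.5 beside 1.56. It fell 5.33-fold in hac1∆(hsf1) relative to WT(hsf1) (adjusted p 5.59e-11), the largest fall.

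RRP14, with RRP5, had the smallest rises of these 5. It read 7.85, 7.33 and 7.85 in hac1∆(hsf1), 8.52, 8.60 and 8.37 in WT(hsf1), 7.97, 7.92 and 7.91 in hac1∆, and 7.80, 7.70 and 7.90 in WT. The low value of 7.33 came from hac1∆(hsf1) replicate 2, the array with the low rRNA controls, and WT(hsf1) lay above all other arrays. RRP14 rose by 0.70 in WT(hsf1) relative to WT (adjusted p 1.71e-04). RRP5, which binds the transcript on both sides of the cut between the subunits, rose by 0.72 and fell by 0.30 in hac1∆(hsf1) relative to hac1∆, RRP12, an export factor of both subunits, rose by 0.76 and fell by 0.45, and NOP13 rose by 1.28 and fell by 0.50.

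Taken as a whole, a wider list of 91 further ribosome biogenesis genes went the same way with smaller medians and more exceptions. In WT(hsf1) relative to WT, 79 rose and 2 fell, with a median of 0.55, of which 30 of 33 other small-subunit factors, 42 of 47 other large-subunit factors and 7 of 11 snoRNP partners and assembly factors rose. The shares of all 5449 genes there were 32.3% up and 33.8% down. In hac1∆(hsf1) relative to hac1∆, 54 fell and 14 rose, with a median of -0.23, beside 30.7% of all genes lower and 26.5% higher. There 22 of 33 other small-subunit factors and 28 of 47 other large-subunit factors fell, with medians of -0.23 and -0.24. Of the 11 snoRNP partners and assembly factors only 4 fell and 2 rose, with a median of -0.03 beside -0.01 for all genes. For the interaction 73 were lower and 8 higher, with a median of -0.78, beside 34.0% of all genes lower and 35.7% higher. Without WT replicate 2 the counts were 82 and 2, 55 and 14, and 72 and 7. With hac1∆(hsf1) replicate 2 left out they were 79 and 2, 50 and 14, and 71 and 7.

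SNU13, the fourth core protein of box C/D particles and also a splicing factor, moved in the same directions as the C/D members. SNU13 read 8.53, 8.54 and 8.59 in hac1∆(hsf1), 10.09, 10.10 and 10.12 in WT(hsf1), 9.01, 8.89 and 9.06 in hac1∆, and 8.77, 8.71 and 8.95 in WT. WT(hsf1) lay above the other arrays and hac1∆(hsf1) below them, and SNU13 rose by 1.29 in WT(hsf1) relative to WT (adjusted p 1.97e-09) and fell by 0.43 in hac1∆(hsf1) relative to hac1∆ (adjusted p 6.79e-05). DBP2, an RNA helicase, read 5.65, 5.74 and 5.72 in hac1∆(hsf1), 7.03, 7.12 and 7.0 in WT(hsf1), 5.65, 5.68 and 5.79 in hac1∆, and 5.55, 5.62 and 5.53 in WT. It rose by 1.48 in WT(hsf1) relative to WT (adjusted p 3.77e-10) with no called difference between the hac1∆ strains. Outside WT(hsf1) its arrays lay close to the background of 5.49. The rise therefore has no exact size, and a fall in hac1∆(hsf1) could hardly have been seen.

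The 2 genes that fell in WT(hsf1) relative to WT, HIT1 and SHQ1, both assist snoRNP assembly and are not part of the mature particle. HIT1 read 6.99, 6.86 and 7.0 in hac1∆(hsf1), 6.95, 6.89 and 6.96 in WT(hsf1), 6.89, 6.77 and 6.83 in hac1∆, and 7.24, 7.24 and 7.28 in WT. SHQ1 read 6.29, 6.33 and 6.44 in hac1∆(hsf1), 6.38, 6.33 and 6.35 in WT(hsf1), 6.34, 6.37 and 6.39 in hac1∆, and 6.45, 6.55 and 6.58 in WT. WT was the highest strain in both, and the differences in WT(hsf1) relative to WT were -0.32 and -0.17 (adjusted p 1.04e-04 and 0.00876).

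The large-subunit factors NSA2 and RRP1 had the deepest falls of the wider list in hac1∆(hsf1) relative to hac1∆. NSA2 read 6.74, 6.87 and 6.92 in hac1∆(hsf1), 8.92, 8.92 and 8.75 in WT(hsf1), 7.76, 7.62 and 7.78 in hac1∆, and 8.14, 7.95 and 8.24 in WT. RRP1 read 6.20, 6.16 and 6.37 in hac1∆(hsf1), 7.87, 7.85 and 7.82 in WT(hsf1), 7.06, 6.96 and 7.11 in hac1∆, and 7.53, 7.15 and 7.59 in WT. No strains overlapped in either gene, and in both hac1∆(hsf1) lay lowest, then hac1∆, WT and WT(hsf1). The falls were 0.88 for NSA2 (adjusted p 1.76e-06) and 0.80 for RRP1 (adjusted p 1.79e-05).

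ECM16 and PRP43 encode helicases, and both rose where the factors fell. ECM16 encodes Dhr1, which Utp14 activates and which removes U3 from the transcript. ECM16 read 9.12, 9.30 and 9.45 in hac1∆(hsf1), 7.35, 7.37 and 7.48 in WT(hsf1), 6.79, 6.83 and 6.89 in hac1∆, and 6.83, 8.22 and 6.87 in WT. It rose by 2.45 ± 0.27 (SE) in hac1∆(hsf1) relative to hac1∆ (adjusted p 8.05e-06), and WT replicate 2, at 8.22, stood apart from the other WT arrays. In WT(hsf1) relative to WT its difference was 0.10 and not called with that array, and 0.55 without it (adjusted p 5.41e-05).

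PRP43 also serves splicing. PRP43 read 8.82, 9.02 and 9.16 in hac1∆(hsf1), 8.38, 8.30 and 8.38 in WT(hsf1), 7.40, 7.36 and 7.46 in hac1∆, and 7.97, 8.48 and 8.07 in WT. It rose by 1.59 ± 0.11 (SE) in hac1∆(hsf1) relative to hac1∆ (adjusted p 2.64e-07), with WT replicate 2 again the highest WT array. In WT(hsf1) relative to WT the difference of 0.18 was not called, and without that array it was 0.33 (adjusted p 0.00286).

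**Figure D5:**
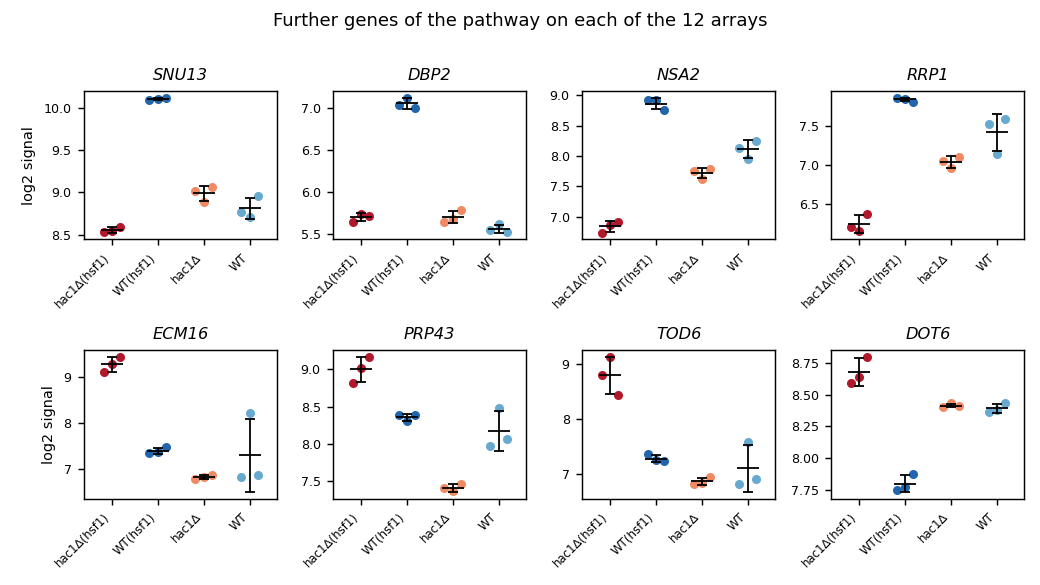
Log2 signal of 8 genes outside the 49 on each array, by strain; dots are arrays, and the bar and whiskers give the mean ± SD of 3. Each panel has its own axis. SNU13 and DBP2 are highest in WT(hsf1), NSA2 and RRP1 lowest in hac1∆(hsf1), and ECM16, PRP43 and TOD6 highest in hac1∆(hsf1), with WT replicate 2 high in these 3.

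The list of 11 regulators also holds general factors and regulators of ribosomal protein genes. Of these 11, 5 rose in hac1∆(hsf1) relative to hac1∆ and none fell by limma (none at an unadjusted p of 0.05 either). Over all genes 26.5% were higher and 30.7% lower. TOD6, a repressor that binds the promoters of ribosome biogenesis genes, read 8.80, 9.12 and 8.44 in hac1∆(hsf1), 7.36, 7.25 and 7.24 in WT(hsf1), 6.83, 6.85 and 6.95 in hac1∆, and 6.82, 7.59 and 6.91 in WT. The hac1∆(hsf1) arrays lay above all others, by 1.91 ± 0.18 (SE) over hac1∆ (adjusted p 2.95e-06), and WT replicate 2 was high. In WT(hsf1) relative to WT its difference was 0.18 and not called, and without WT replicate 2 it was 0.42 (adjusted p 0.0167). DOT6, its paralog, read 8.59, 8.64 and 8.80 in hac1∆(hsf1), 7.75, 7.77 and 7.87 in WT(hsf1), 8.40, 8.43 and 8.41 in hac1∆, and 8.36, 8.38 and 8.43 in WT. DOT6 was thus highest in hac1∆(hsf1), by 0.26 over hac1∆ (adjusted p 0.00132), and lowest in WT(hsf1), where it fell by 0.59 relative to WT (adjusted p 7.44e-07).

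CRF1, a corepressor of ribosomal protein genes, read 6.90, 6.75 and 7.28 in hac1∆(hsf1), 5.41, 5.42 and 5.44 in WT(hsf1), 6.36, 6.44 and 6.46 in hac1∆, and 6.5, 6.66 and 6.54 in WT. Its WT(hsf1) arrays lay below background, where the difference of -1.14 from WT (adjusted p 5.44e-07) has no exact size, and it rose by 0.56 in hac1∆(hsf1) relative to hac1∆ (adjusted p 4.57e-04). STB3, a repressor, read 8.42, 8.06 and 8.38 in hac1∆(hsf1), 8.06, 8.16 and 8.09 in WT(hsf1), 8.24, 8.35 and 8.27 in hac1∆, and 8.69, 8.62 and 8.57 in WT. STB3 fell by 0.53 in WT(hsf1) relative to WT (adjusted p 7.82e-05) and was not called in hac1∆(hsf1) relative to hac1∆ (adjusted p 0.998). SFP1, the activator, was called in neither (hsf1) comparison, at -0.02 and -0.08.

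The general regulators ABF1 and HMO1 also rose in hac1∆(hsf1) relative to hac1∆, by 0.40 and 0.27, and RAP1 and IFH1 rose in WT(hsf1) relative to WT, by 0.36 and 0.18. ABF1 read 7.71, 7.74 and 7.85 in hac1∆(hsf1), 7.90, 7.98 and 7.87 in WT(hsf1), 7.27, 7.33 and 7.49 in hac1∆, and 7.88, 7.81 and 7.89 in WT. RAP1 read 6.78, 6.92 and 6.72 in hac1∆(hsf1), 7.44, 7.47 and 7.40 in WT(hsf1), 6.77, 6.83 and 6.81 in hac1∆, and 7.09, 7.0 and 7.14 in WT. HMO1 read 9.87, 9.51 and 9.79 in hac1∆(hsf1), 9.51, 9.44 and 9.57 in WT(hsf1), 9.51, 9.41 and 9.44 in hac1∆, and 9.29, 9.54 and 9.3 in WT. IFH1 read 7.04, 6.99 and 7.13 in hac1∆(hsf1), 7.3, 7.32 and 7.19 in WT(hsf1), 7.14, 7.13 and 7.12 in hac1∆, and 7.1, 7.0 and 7.17 in WT. ABF1 was lowest in hac1∆ and RAP1 highest in WT(hsf1), while the calls for HMO1 (adjusted p 0.0208) and IFH1 (adjusted p 0.0129) rested on single arrays. The IFH1 call was lost without WT replicate 2 or WT(hsf1) replicate 2, at 0.13 and 0.15, and the HMO1 call without hac1∆ replicate 2 or 3 or hac1∆(hsf1) replicate 1 or 3, at 0.20 to 0.26. These arrays measure mRNA, and the activity of the regulators was not measured.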

How the data were processed

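RNA of the 12 cultures was labelled from its 3′ end and hybridised to 1-colour Affymetrix yeast arrays, per the labels' protocols. The deposited values are log2 signals that the authors made with PLIER, per the submitters' processing notes; for its version and settings and the genome build of the probe sets, nothing was given in the sources used here. They were used as deposited, with array medians between 6.00 and 6.07, and with 12 arrays it is their number that limits the precision. Of 10928 probe sets, 7244 had 1 listed symbol, 1 had several and 3683 had none, and 5498 matched a gene of the RefSeq R64 table, which was used for names and neighbours and for no coordinate. The probe set of highest mean was kept for each of 5449 genes (47 had several).

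Differences were tested with limma 3.58.1 in R 4.3.3 (lmFit, contrasts.fit and eBayes, 1 mean per strain over all 12 arrays, 8 residual degrees of freedom) and adjusted by Benjamini-Hochberg over all 5449 genes of a comparison; an adjusted p under 0.05 was called. The script was checked on simulated data. Lists are given by counts and medians with no test. The factors, classes and lists were chosen with earlier results of these data known, and 102 of 104 listed further pathway genes were measured (91 factors and 11 regulators). By rule, every array is given for NOP1, NSR1, the extremes of each class in WT(hsf1) minus WT, the 4 largest interactions and factors called against the majority. The same holds for the extremes of the wider list and for regulators called in either (hsf1) comparison. Replicate numbers come from the sample titles. Same-numbered arrays were compared by the correlation of their deviations from the strain means: of 18 pairs 7 exceeded 0.1 (range -0.25 to 0.50), and only between hac1∆(hsf1) and hac1∆ did all 3 (0.15 to 0.50), so a block was used beside that comparison alone. A planned search for promoter motifs was not run. Alternatives changed the normalization, filter, variance model, weights, strains in the fit, probe set rule, block and arrays.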

Additional observations from a re-analysis of the deposited data

Results flagged for a closer look

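The (hsf1) difference was tested between the strains without and with HAC1, and it was called in all 49 factors. The difference in hac1∆ minus that in WT was below 0 in 48 genes and above 0 in 1. By the same test 34.0% of all genes were lower and 35.7% higher. The HSF1 probe set differed by 2.84 in hac1∆(hsf1) relative to hac1∆ and by -0.08 in WT(hsf1) relative to WT. The values for the genes given with every array were NOP56 (-2.52), NOP58 (-2.40), NSR1 (-2.34), NOP1 (-2.30), NIP7 (-1.94), UTP13 (-1.85), CBF5 (-1.68), RRP14 (-0.95), UTP5 (-0.76), NOP53 (-0.65), NOP16 (-0.47), UTP9 (-0.32) and UTP20 (0.55), in log2 units. These genes follow the naming rule given above and are not a ranking, since the test called all 49 factors. UTP20 was the gene of opposite sign. Groups of 3 arrays are too small for a search for single outlying arrays, and WT replicate 2 is described with the strains above.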

How the results depend on the processing

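No difference of the 49 factors changed sign while called, in 6 comparisons under up to 20 alternatives and 1 added after seeing the data (the paired fit of hac1∆(hsf1) and hac1∆ given above). Calls changed under at least 1 alternative for 1 factor in WT(hsf1) minus WT, 6 between the hac1∆ strains, 16 in hac1∆ minus WT, 1 between the (hsf1) strains, 9 in hac1∆(hsf1) minus WT and 0 in the interaction. In hac1∆ minus WT, 3 factors were lower, against 7 with array weights and 5 with the replicate block; in hac1∆(hsf1) minus WT, 1 was higher, against 2 with quantile normalization and 2 with array weights (NOC3 beside UTP20). The replicate number as a block over all 12 arrays left 49 called in WT(hsf1) minus WT, 43 lower with the hac1∆ strains compared, 48 lower between both (hsf1) strains and 48 lower in the interaction. Leaving out each array gave medians in WT(hsf1) minus WT of 0.64 to 0.76 for large-subunit factors, 1.2 to 1.37 for snoRNP proteins and 0.65 to 0.83 for the 5 others; 1 to 6 factors lower in hac1∆ minus WT; 1 to 2 higher and a large-subunit median of -0.49 to -0.33 in hac1∆(hsf1) minus WT, where 32 to 40 fell; and an interaction median of -1.28 to -1.10 for the 5 others. The cause of these shifts was not tested. The lowest value of any factor on any array was 5.50, for UTP8 in hac1∆(hsf1), only just above the background of 5.49. Whether dim signal made the differences of the dimmest factors smaller was not tested. The promoter motif alternatives were not run.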
